A study of Homo sapiens with 6 samples.

Results

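The genes of 6 steroid and orphan nuclear receptors were followed through 6 human prostate cancer cell lines: the progesterone receptor PGR, the mineralocorticoid receptor NR3C2, the estrogen receptors ESR1 and ESR2, and the estrogen-related receptors ESRRA and ESRRG. They were picked by gene symbol and not by a rule on their values, though earlier results of these data were known. They are 6 of the 47032 gene symbols in the tables. All 6 passed the limit on low counts used for testing. The androgen receptor itself was not analysed here.

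RNA-seq was run on 1 library per line, from total RNA, on the SOLiD platform. The castration-sensitive lines LnCaP, VCaP and LAPC4 were each set beside a castration-resistant line that carries the same parental name: LnCaP-abl, VCaP-CR and LAPC4-CR. Of the parents, LnCaP and LAPC4 were kept in RPMI, and VCaP was kept in DMEM. Their media held 10% fetal bovine serum, while all 3 resistant lines grew in RPMI with 10% charcoal-stripped serum and B27 supplement. Charcoal stripping removes steroids from serum, and B27 was added as well. The state of the cells and the serum and supplement of the medium thus changed together and cannot be told apart. In the VCaP pair the base medium also changed. Each line is a single culture lineage, so the replicates of a state are 3 different lines.

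Steroid receptors are transcription factors that bind a hormone, pair up and attach to short DNA motifs near their target genes. PGR binds progestins, NR3C2 binds aldosterone and cortisol, and ESR1 and ESR2 bind estradiol. ESRRA and ESRRG resemble the estrogen receptors in their DNA-binding domain but have no known natural steroid ligand, and they drive genes of mitochondrial metabolism together with coactivators of the PGC-1 family. In the prostate, PGR and ESR1 are best known from the stroma, ESR2 from the epithelium, and PGR is a classical target of ESR1 in breast and uterus.

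The files place PGR at chr11:100405565-100506465, NR3C2 at chr4:149219363-149585300, ESR1 at chr6:152019519-152492447, ESR2 at chr14:63620703-63874583, ESRRA at chr11:63829620-63840791 and ESRRG at chr1:214743211-215377720, all in build hg18 and all protein coding. Their identifiers are ENSG00000082175, ENSG00000151623, ENSG00000091831, ENSG00000140009, ENSG00000173153 and ENSG00000196482 in the same order. The exonic length behind the values runs from 3030 bases for ESRRA to 15306 bases for PGR. PGR and ESRRG overlap no other entry of the tables, while the other 4 do.

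RefSeq promoter windows on build GRCh38.p14 were found for all 6 genes, and 4 windows are shown as examples of the motifs searched for. Windows not shown hold motifs too, such as GC boxes in all 3 windows of PGR and in 2 of the 6 of ESR1, and AGAACA in 1 of the 6 of ESR1. Each holds the 250 bases before a transcription start, 5′ to 3′ on the gene's strand, with motif matches on either strand in capitals. The motifs were the estrogen receptor core AGGTCA, the estrogen-related receptor site AAGGTCA, which contains it, the steroid receptor core AGAACA and the GC box GGGCGG. They occur in 12.1%, 3.44%, 12.4% and 42.6% of the 35116 windows of this length.
NR3C2, chr4:148445323-148445572, minus strand: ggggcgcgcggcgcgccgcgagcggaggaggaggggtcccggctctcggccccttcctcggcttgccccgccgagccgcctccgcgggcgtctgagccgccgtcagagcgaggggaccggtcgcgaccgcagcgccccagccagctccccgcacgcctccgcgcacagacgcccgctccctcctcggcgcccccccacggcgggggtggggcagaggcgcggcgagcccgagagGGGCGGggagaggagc
ESR2, chr14:64294411-64294660, minus strand: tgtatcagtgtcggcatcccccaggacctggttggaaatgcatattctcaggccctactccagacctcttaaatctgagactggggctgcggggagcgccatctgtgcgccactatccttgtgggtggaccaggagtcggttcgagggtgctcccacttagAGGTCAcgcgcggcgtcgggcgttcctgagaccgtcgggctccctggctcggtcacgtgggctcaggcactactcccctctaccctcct
ESRRA, chr11:64305274-64305523, plus strand: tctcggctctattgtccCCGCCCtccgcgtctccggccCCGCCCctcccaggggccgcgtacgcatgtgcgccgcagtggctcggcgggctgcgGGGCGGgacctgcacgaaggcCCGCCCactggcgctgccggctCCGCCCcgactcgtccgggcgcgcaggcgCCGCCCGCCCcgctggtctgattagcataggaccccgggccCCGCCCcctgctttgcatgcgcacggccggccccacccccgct
ESRRG, chr1:217076993-217077242, minus strand: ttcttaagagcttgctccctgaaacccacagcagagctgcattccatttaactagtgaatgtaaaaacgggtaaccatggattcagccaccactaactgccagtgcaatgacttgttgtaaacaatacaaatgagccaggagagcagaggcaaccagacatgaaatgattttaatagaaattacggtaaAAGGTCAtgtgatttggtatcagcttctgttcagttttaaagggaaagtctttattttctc
The NR3C2 window has 81.6% G and C and holds 1 GC box. The ESRRA window, the only one listed for that gene, holds 8 GC boxes. The ESRRG window has 39.6% G and C and the extended site, and the ESR2 window holds 1 estrogen receptor core. These matches describe letters in a window and say nothing about binding in these cells.

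The libraries held 8661337 to 22433655 counts, and each resistant line had more than its parent. The share of counts in protein-coding genes was also higher in each resistant line. Parent first, it was 67.8% and 77.4% in the LnCaP pair, 62.8% and 68.0% in the VCaP pair, and 68.3% and 79.5% in the LAPC4 pair. The part of these library differences in the changes below was not tested. Levels below are scaled FPKM, which is the deposited FPKM (fragments per length of transcript and per library depth) divided by a library factor between 0.847 and 1.11, so that they can be set beside each other across lines and, being per length, across genes. Intervals are 95% and cover counting error only. Luminal epithelial markers summed to 582 to 988 scaled FPKM in the sensitive lines and 339 to 409 in the resistant lines, and none of the 8 was at 0. The lower sum came mainly from KLK3, the gene of prostate-specific antigen, at 610 and 0.649 in the LnCaP pair, parent first, 327 and 19.1 in the VCaP pair, and 108 and 2.02 in the LAPC4 pair. Without it the 7 other markers summed to 377.4 and 362, 304 and 320, and 474 and 407. These sums hide opposite changes. In the LAPC4 pair TMPRSS2 stood at 56.9 and 0.638 and HOXB13 at 31.3 and 1.60, and FOLH1 and FOXA1 were also lower in LAPC4-CR. KRT8, at 64.0 and 93.3, KRT18, at 48.9 and 73.7, and EPCAM were higher there. TMPRSS2 was also lower in LnCaP-abl, at 9.73 against 36.4 in LnCaP, but higher in VCaP-CR than in VCaP. The 4 basal markers summed to at most 4.59 in any line. The 7 stromal markers summed to 2.14 to 6.70 in the sensitive lines and 2.82 to 52.1 in the resistant lines, where the top of the range came from LUM in VCaP-CR.

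The 6 receptors lay at 3 heights. ESR1 and ESRRA were abundant, at 10.9 to 36.4 scaled FPKM, NR3C2 was intermediate at 0.821 to 3.45, and PGR, ESR2 and ESRRG stayed at 0.252 to 0.894. The levels of the last 3 overlapped those of transcripts that mark cells these cultures should lack. Across 8 immune and endothelial markers, the median was, parent first, 0.466 and 0.210 scaled FPKM in the LnCaP pair, 0.238 and 0.197 in the VCaP pair, and 0.299 and 0.359 in the LAPC4 pair. In LnCaP, all 8 of these markers were at or above PGR, and 4 of them were at or above each of ESR2 and ESRRG. Above NR3C2, ESR1 and ESRRA there were 0 such markers in all 6 lines.

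**Figure D1:**
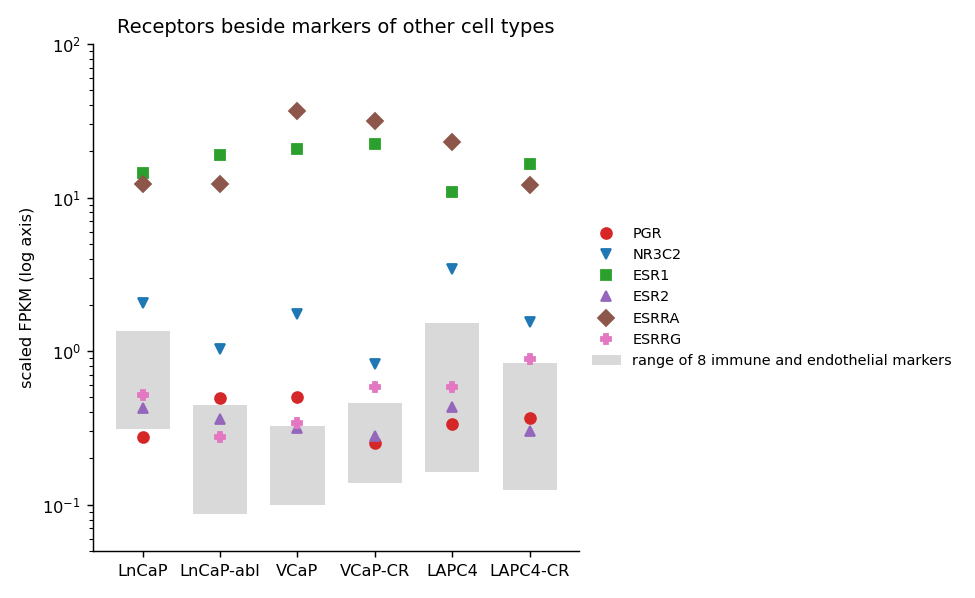
Scaled FPKM (log axis) of the 6 receptors in each of the 6 lines, 1 library per line, with a grey bar from the lowest to the highest of 8 immune and endothelial markers. NR3C2, ESR1 and ESRRA lie above the grey bar in every line, and PGR lies below it in LnCaP.

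NR3C2, the receptor through which aldosterone controls sodium transport, stood at 0.449 to 0.508 of its parent's level in every resistant line. Parent first, its scaled FPKM was 2.04 and 1.04 in the LnCaP pair, 1.73 and 0.821 in the VCaP pair, and 3.45 and 1.55 in the LAPC4 pair, from 81 to 294 counts. Every resistant line was below every sensitive line, but the counting intervals of the nearest lines across the states, VCaP and LAPC4-CR, overlapped. That separation in this direction was met by 5.29% of the 20132 genes tested, and a lower level in the resistant line of all 3 pairs by 19.6%. In bulk RNA, fewer cells with a transcript and less of it per cell cannot be told apart.

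The ratio of NR3C2 in the resistant line to its parent was 0.508 (interval 0.379 to 0.677) in the LnCaP pair. It was 0.474 (0.354 to 0.632) in the VCaP pair and 0.449 (0.378 to 0.532) in the LAPC4 pair. All 3 intervals lay below 1, which held for 3.88% of genes. The sensitive mean was 2.41 ± 0.913 (SD, n = 3) and the resistant mean 1.13 ± 0.372 (SD, n = 3). The mean log2 ratio over the pairs was -1.07 ± 0.09 (SD, n = 3), and the exact sign-flip permutation test over 3 pairs gave a two-sided p = 0.25, the smallest it can give.

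In edgeR's quasi-likelihood test with the parental line as a block, the NR3C2 log2 change was -1.01 (SE 0.30). The unadjusted p was 0.0121 and the Benjamini-Hochberg adjusted p was 0.573, so the change did not pass at 5%. The same test called 0% of genes higher and 0% lower, and an unadjusted p under 0.05 was found for 4.68% of genes higher and 3.57% lower. NR3C2 was the only receptor of the 6 with an unadjusted p under 0.05. DESeq2 gave it an adjusted p of 0.188, while calling 0.689% of its genes higher and 0.4% lower. The luminal markers did not share one direction, with 4 edgeR changes above 0 and 4 below and a median log2 of 0.03.

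**Figure D2:**
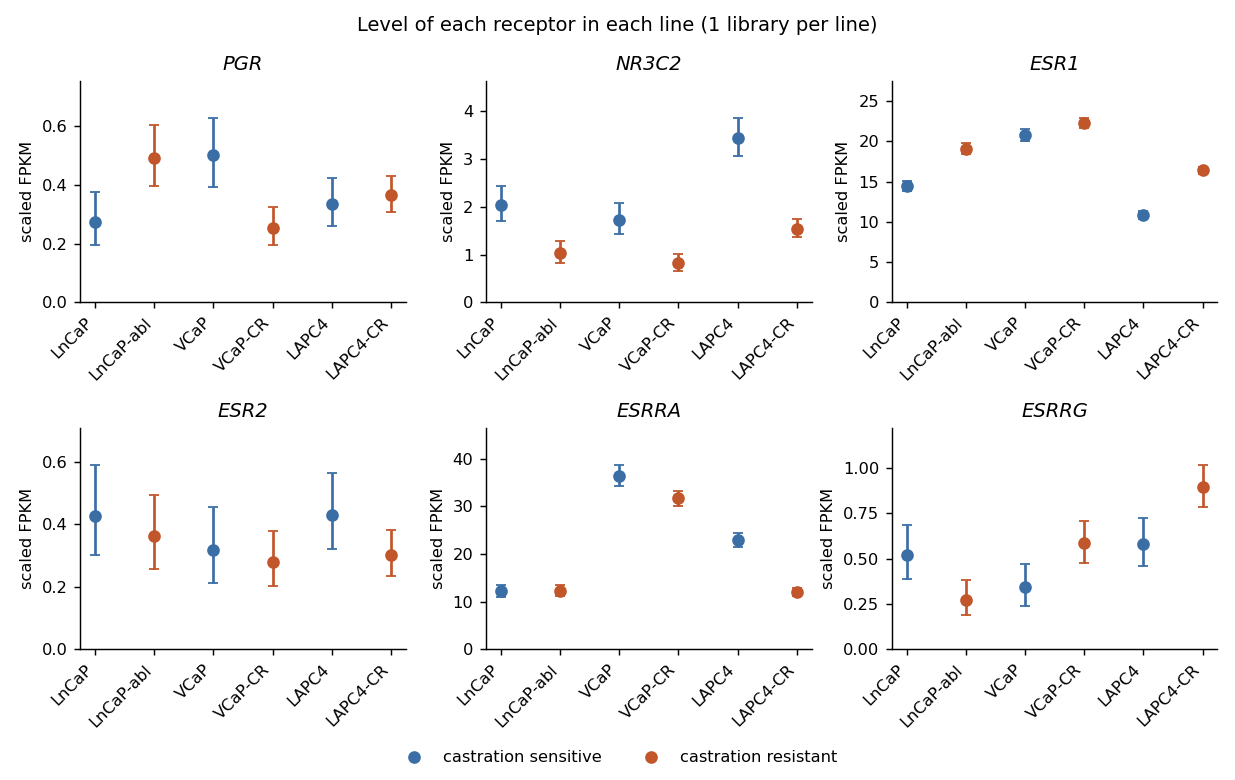
Scaled FPKM of each receptor in each line, with 95% Poisson intervals for counting error, blue for castration-sensitive and orange for castration-resistant lines. For NR3C2 the 3 resistant lines, at 0.821 to 1.55, are all below the 3 sensitive lines, at 1.73 to 3.45.

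ESR1, the main estrogen receptor of breast and uterus, was among the more abundant transcripts of all 6 lines, between the 83.8 and 92.8 percentiles of protein-coding genes. Parent first, its scaled FPKM was 14.4 and 19.0 in the LnCaP pair, 20.8 and 22.3 in the VCaP pair, and 10.9 and 16.4 in the LAPC4 pair, from 1822 to 5567 counts. It was higher in the resistant line of each pair, like 13.1% of genes, but the 2 states overlapped, since VCaP lay above LnCaP-abl and LAPC4-CR. No neighbours in the order of lines had overlapping counting intervals.

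The ESR1 ratio was 1.32 (1.24 to 1.40) in the LnCaP pair, 1.07 (1.02 to 1.12) in the VCaP pair and 1.51 (1.43 to 1.59) in the LAPC4 pair. All 3 intervals lay above 1, as they did for 4.82% of genes. These intervals are narrow because the counts are high, and they hold no culture-to-culture spread. The means were 15.4 ± 4.99 in the sensitive and 19.2 ± 2.93 in the resistant lines (SD, n = 3 each). The edgeR log2 change was 0.43 (SE 0.24, adjusted p = 0.662), which did not pass.

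The end of ESR1 shares 7.94 kb with SYNE1, a nuclear envelope gene, which stood at 0.223 to 0.396 scaled FPKM. The other entries that overlap ESR1 had at most 9 counts in any line. The part of the overlapping entries in the ESR1 counts was not tested. The tables hold 1 count per gene, so where along the 473 kb of ESR1 its reads fell could not be examined.

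ESR2, the second estrogen receptor, was low and showed no difference larger than its error in any pair. Parent first, its scaled FPKM was 0.428 and 0.362 in the LnCaP pair, 0.317 and 0.280 in the VCaP pair, and 0.431 and 0.301 in the LAPC4 pair, from 29 to 70 counts. The ratios were 0.847 (0.528 to 1.36), 0.883 (0.537 to 1.47) and 0.699 (0.481 to 1.02) in the LnCaP, VCaP and LAPC4 pairs, so changes inside these intervals were not detectable at this depth. The edgeR log2 change was -0.25 (SE 0.32, adjusted p = 0.840).

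SYNE2, another nuclear envelope gene, overlaps 56.0% of the ESR2 span and had 625 to 10108 counts. Its ratio was 2.76, 2.06 and 3.47 in the same pairs, while each ESR2 ratio was below 1 with an interval that included 1. The part of SYNE2 reads in the ESR2 counts was not tested. Use of strand in the counting is not given in the sources used here.

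PGR, the progesterone receptor, was low, and 2 pairs stood opposite each other. Its scaled FPKM, parent first, was 0.275 and 0.492 in the LnCaP pair, 0.501 and 0.252 in the VCaP pair, and 0.334 and 0.365 in the LAPC4 pair, from 39 to 139 counts. The ratio was 1.79 (1.21 to 2.68) in the LnCaP pair, 0.504 (0.354 to 0.715) in the VCaP pair and 1.09 (0.810 to 1.49) in the LAPC4 pair. An interval leaving out 1, in either direction, was found for 55.3%, 41.5% and 57.6% of genes in these pairs, so single-pair differences of this kind were common. By direction, 27.1% of genes had an interval above 1 in the LnCaP pair and 21.4% one below 1 in the VCaP pair. The group means were 0.370 ± 0.117 and 0.370 ± 0.120 (SD, n = 3 each), and the edgeR log2 change was 0.06 (SE 0.44, adjusted p = 0.981).

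All neighbours in the PGR order had overlapping intervals. Only in VCaP and LnCaP-abl was the PGR level above all 8 immune and endothelial markers. In LnCaP-abl its counting interval, 0.395 to 0.605, included the highest of these markers, at 0.448. In the LnCaP pair those markers were lower in LnCaP-abl for 8 of 8, and their summed level there was 0.433 of that in LnCaP. In the VCaP pair 3 of 8 were lower, with a summed ratio of 1.01, and in the LAPC4 pair 5 of 8, with a ratio of 0.899.

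**Figure D3:**
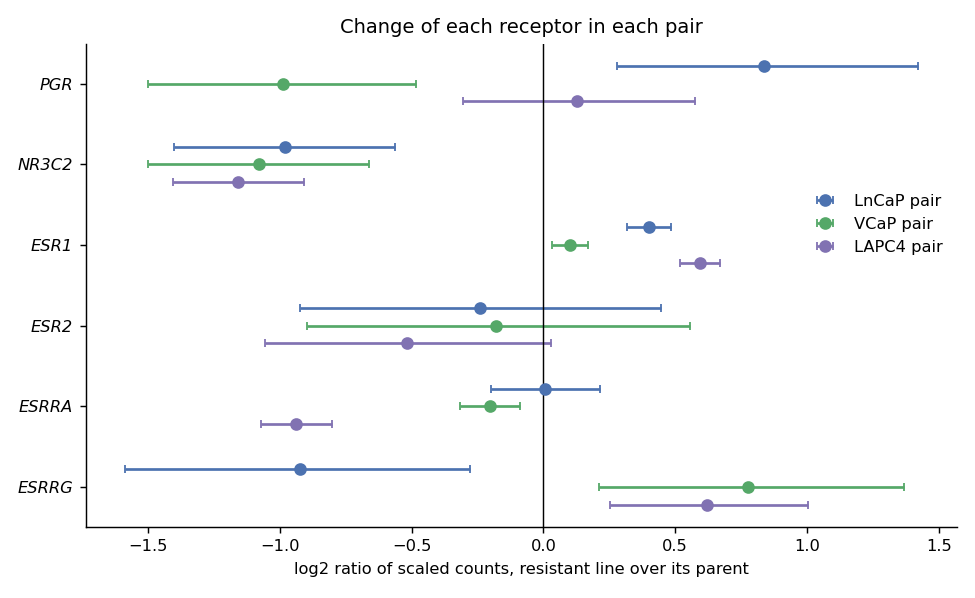
Log2 ratio of scaled counts, resistant line over its parent, for each receptor and pair, with 95% conditional binomial intervals for counting error and 1 library per line. NR3C2 lies left of 0 and ESR1 right of 0 in all 3 pairs, while PGR and ESRRG have pairs on both sides.

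ESRRA, the estrogen-related receptor that activates oxidative metabolism genes, was highest in the VCaP lineage. Parent first, its scaled FPKM was 12.2 and 12.3 in the LnCaP pair, 36.4 and 31.6 in the VCaP pair, and 22.9 and 12.0 in the LAPC4 pair, from 343 to 1538 counts. Both VCaP lines were above the other 4, an order shared by 16.5% of genes. The lowest 3 lines, LnCaP-abl, LnCaP and LAPC4-CR, had overlapping intervals.

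The edgeR lineage test gave ESRRA an F of 10.8, an unadjusted p of 0.00776 and an adjusted p of 0.0590, just short of the 5% limit that 11% of genes passed, while 31.7% had an unadjusted p under 0.05. The log2 difference of VCaP from LnCaP lines was 1.51 (SE 0.35, adjusted p = 0.0576), and that of LAPC4 from LnCaP lines was 0.50 (SE 0.34, adjusted p = 0.494). These edgeR contrasts called 5.22% and 2.57% of genes, and that of LAPC4 from VCaP lines, where ESRRA had a log2 of -1.01 (SE 0.34, adjusted p = 0.105), called 10.8%. When a library was left out, ESRRA passed the edgeR lineage test without LAPC4 or without LAPC4-CR, and did not pass without any of the other lines. Each of these fits leaves a single line in a lineage. More of all genes passed without a LnCaP or LAPC4 line than in the main fit, and fewer without a VCaP line. DESeq2 gave ESRRA a lineage adjusted p of 0.0106 and called 21.2% of genes. The next smallest edgeR lineage adjusted p was 0.195, for NR3C2.

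Within pairs, the ESRRA ratio was 1.00 (0.870 to 1.16) for LnCaP, 0.869 (0.803 to 0.940) for VCaP and 0.522 (0.476 to 0.573) for LAPC4. Intervals below 1 were found for 28.2%, 21.4% and 30.3% of genes in these pairs. The edgeR log2 change with state was -0.31 (SE 0.28, adjusted p = 0.769).

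The last 284 bases of ESRRA are shared with TRMT112, a cofactor of methyltransferases, which stood, parent first, at 46.1 and 49.5 scaled FPKM in the LnCaP pair, 248 and 274 in the VCaP pair, and 54.7 and 38.5 in the LAPC4 pair. Both genes were highest in the VCaP lines. The shared stretch is 2.54% of the ESRRA span. It may be a larger share of the exonic length behind the values, which is 3030 bases. Its part in the ESRRA counts was not tested.

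**Figure D4:**
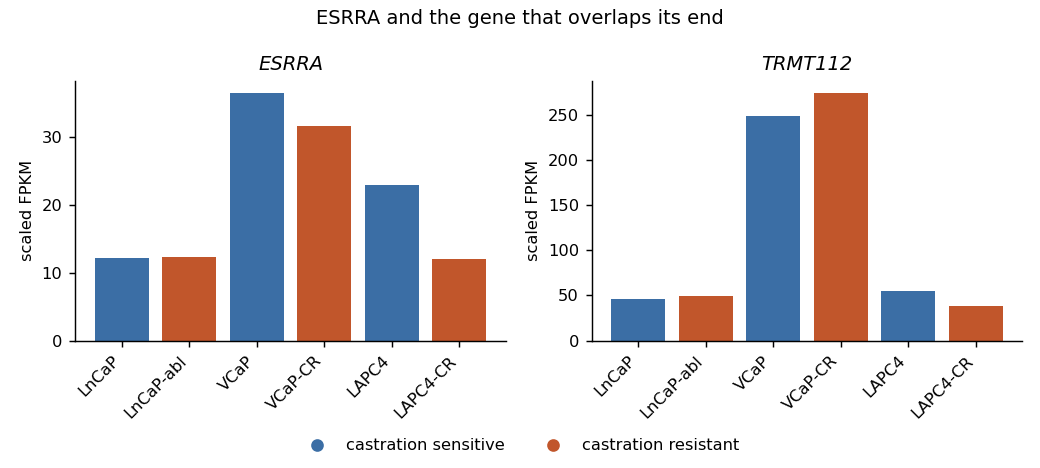
Scaled FPKM of ESRRA and of TRMT112, whose annotated spans share 284 bases, in the 6 lines, blue for castration-sensitive and orange for castration-resistant, 1 library per bar. Both genes are highest in VCaP and VCaP-CR, and ESRRA also stands at 22.9 in LAPC4.

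ESRRG, the estrogen-related receptor of highly oxidative tissues, was low, and the LnCaP pair stood opposite to the other two. Its scaled FPKM, parent first, was 0.520 and 0.274 in the LnCaP pair, 0.341 and 0.583 in the VCaP pair, and 0.581 and 0.894 in the LAPC4 pair, from 35 to 240 counts. The ratio was 0.527 (0.333 to 0.825) in the LnCaP pair, 1.71 (1.16 to 2.58) in the VCaP pair and 1.54 (1.19 to 2.005) in the LAPC4 pair. The backgrounds for these directions were 28.2% lower in the LnCaP pair, 20.1% higher in the VCaP pair and 27.3% higher in the LAPC4 pair. The edgeR log2 change was 0.25 (SE 0.44, adjusted p = 0.891). The ESRRG level was above all 8 immune and endothelial markers in VCaP, VCaP-CR and LAPC4-CR. In VCaP and LAPC4-CR its counting interval, 0.239 to 0.472 and 0.784 to 1.01, included the highest of these markers, at 0.325 and 0.843. Those markers were likewise lower in LnCaP-abl than in LnCaP, and their part in that pair was not tested.

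The genes around the receptors were described by lists of genes they act on or need, by counts only. No gene of any list passed the edgeR test of state at 5%, but with no filter on low counts edgeR gave KIAA1324 an adjusted p of 0.0237 and ZBTB16 one of 0.0177. Over all genes tested, the median log2 change was 0.00, with 10072 above 0 and 10060 below.

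Among 18 tested estrogen response genes, 14 changes were above 0 and 4 below, with a median log2 of 0.31, and an unadjusted p under 0.05 was found for 6 higher and 1 lower, against 4.68% and 3.57% of all genes. KIAA1324, a membrane protein induced by estrogen, stood, parent first, at 0.465 and 0.882 scaled FPKM in the LnCaP pair, 9.34 and 23.4 in the VCaP pair, and 0.366 and 2.41 in the LAPC4 pair. It was higher in each resistant line than in its parent (edgeR log2 1.71, SE 0.39, adjusted p = 0.573), and DESeq2 gave it an adjusted p of 0.0148. AGR2, a disulfide isomerase of secretory cells, stood at 2.43 and 5.26, 129 and 228, and 39.6 and 76.4 in the same pairs (edgeR log2 1.02, SE 0.24, adjusted p = 0.573). The edgeR lineage test, which called 11% of all genes, called 5 of these 18, AGR2 (adjusted p = 0.00234) and KIAA1324 (adjusted p = 0.00489) among them. PDZK1, a scaffold protein, had a log2 change of 1.19 (SE 0.36).

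Among 17 corticoid and progestin response genes, 5 changes were above 0 and 12 below, with a median of -0.39, and an unadjusted p under 0.05 was found for 1 higher and 3 lower, against 4.68% and 3.57% of all genes. ZBTB16, a transcriptional repressor induced by several steroid receptors, stood, parent first, at 3.85 and 0.199 scaled FPKM in the LnCaP pair, 4.99 and 2.91 in the VCaP pair, and 3.95 and 0.214 in the LAPC4 pair. It was lower in each resistant line (edgeR log2 -3.01, SE 0.78, adjusted p = 0.573), and DESeq2 gave an adjusted p of 0.00069. EdgeR without the VCaP pair gave ZBTB16 an adjusted p of 0.00765, in a fit that called 25 genes higher and 34 lower. Without the LnCaP pair, edgeR called 0 genes in either direction. FKBP5, an immunophilin of the receptor chaperone complex that androgens also induce, stood at 10.8 and 2.44, 7.03 and 5.39, and 6.39 and 1.93 in the same pairs (edgeR log2 -1.36, SE 0.38, adjusted p = 0.573). SCNN1B, the beta subunit of the sodium channel that aldosterone regulates, was higher in each resistant line, at 0.476 and 1.43, 1.28 and 1.78, and 2.08 and 9.62 (edgeR log2 1.51, SE 0.45, adjusted p = 0.573). The direction of SCNN1B was thus opposite to that of NR3C2 in all 3 pairs, but the other listed subunits of the channel were mixed. SCNN1G stood, parent first, at 0.616 and 0.748, 0.262 and 0.142, and 0.839 and 0.298 in the same pairs. SCNN1A stood at 3.55 and 6.43, 0.331 and 0.212, and 1.41 and 9.96. ATP1B1 (adjusted p = 0.0122), the beta subunit of the sodium pump, was among 4 of the 17 called by edgeR between lineages, against 11% of all genes.

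Of 19 metabolic targets of the estrogen-related receptors, 8 changes were above 0 and 11 below, with a median of -0.07 and no gene at an unadjusted p under 0.05. LDHB, a lactate dehydrogenase subunit, stood, parent first, at 94.5 and 1.73 scaled FPKM in the LnCaP pair, 181 and 139 in the VCaP pair, and 31.6 and 10.8 in the LAPC4 pair (edgeR log2 -2.21, SE 1.02, adjusted p = 0.619). PDK4, a kinase that restrains pyruvate dehydrogenase, had an edgeR log2 of -1.32 (SE 0.56). None of the list was called by edgeR between lineages, where PPARA and COX5A had the smallest adjusted p, 0.0969 and 0.101. Of the 3 PGC-1 coactivators, PPARGC1A stayed at 0.274 to 0.442 scaled FPKM and PPARGC1B at 0.354 to 1.29. PPRC1 was the most abundant of them, at 2.01 to 4.69.

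Among 15 coregulators, 10 changes were above 0 and 5 below, with a median of 0.40, and 4 had an unadjusted p under 0.05, all higher, a direction in which 4.68% of all genes did. NCOR1, a corepressor, had an edgeR log2 of 0.85 (SE 0.24), CREBBP, an acetyltransferase, 0.98 (SE 0.29), and NCOA3, a p160 coactivator, 1.10 (SE 0.42). By lineage, CARM1, an arginine methyltransferase, had an edgeR adjusted p of 0.0566. Among 12 chaperones, 10 changes were above 0 and 2 below, with a median of 0.12. DNAJB1 had a log2 of 0.98 (SE 0.26), HSP90AA1 0.78 (SE 0.24) and PPID 0.34 (SE 0.29). STIP1, which links the HSP70 and HSP90 machines, was 142 and 197 in the VCaP pair against 38.2 to 52.8 in the other 4 lines (edgeR lineage adjusted p = 0.0157), and CDC37 had a lineage adjusted p of 0.0313. Neither STIP1 nor CDC37 passed by lineage without VCaP or without VCaP-CR, and fewer of all genes passed in those fits. CDC37 also did not pass without LnCaP-abl, where the number of all genes passing did not fall.

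Of 8 enzymes that make or inactivate ligands, 4 changes were above 0 and 4 below. CYP1B1, an estrogen hydroxylase, stood at 2.28 and 8.08 in the VCaP pair and at 0.380 to 1.62 in the other 4 lines. Its edgeR log2 of state was 1.13 (SE 0.42), and its edgeR lineage adjusted p was 0.0202. SULT1E1, the estrogen sulfotransferase, had a log2 of -0.94 (SE 0.39) and an edgeR lineage adjusted p of 0.0115. Neither gene passed by lineage without VCaP-CR, where fewer of all genes passed too. CYP1A1, another hydroxylase, stood at 26.8 in LAPC4 and 3.32 in LAPC4-CR and at or below 1.07 in the other lines. Of 6 membrane steroid receptors, 5 changes were above 0. GPER, the G protein-coupled estrogen receptor, stood at 12.4 in LnCaP-abl and between 0.910 and 1.60 in the other 5 lines (edgeR log2 1.48, SE 0.67, adjusted p = 0.618), and was higher in the resistant line of each pair. PGRMC2 had a log2 of 0.77 (SE 0.26), and PGRMC1 (edgeR lineage adjusted p = 0.0162) was highest in LAPC4 and LAPC4-CR, at 221 and 179. PAQR7, a membrane progestin receptor, had an edgeR lineage adjusted p of 0.0281, and likewise did not pass without VCaP-CR.

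Beside the 6 receptors, 31 other nuclear receptors were tested: 16 changes were above 0 and 15 below, with a median of 0.03, and 3 had an unadjusted p under 0.05, all lower, as did 3.57% of all genes. RORB, NR4A1 and THRB had edgeR log2 changes of -1.11, -0.89 and -1.22. The edgeR lineage test called 5 of the 31, against 11% of all genes. Among them was NR2F1 (adjusted p = 0.0111), at 7.17 in LAPC4 and 21.0 in LAPC4-CR and at most 0.797 elsewhere. RORB (adjusted p = 0.0174) was called too, but not without VCaP or without VCaP-CR, where fewer of all genes passed. The glucocorticoid receptor NR3C1, the closest relative of NR3C2, was higher in LnCaP-abl, at 6.94, than in LnCaP, at 0.518. In the other pairs it was lower in the resistant line, like NR3C2. Parent first, it stood there at 0.914 and 0.679 in the VCaP pair and 0.751 and 0.320 in the LAPC4 pair. For the 6 receptors themselves the median was -0.10, with 3 above 0 and 3 below.

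**Figure D5:**
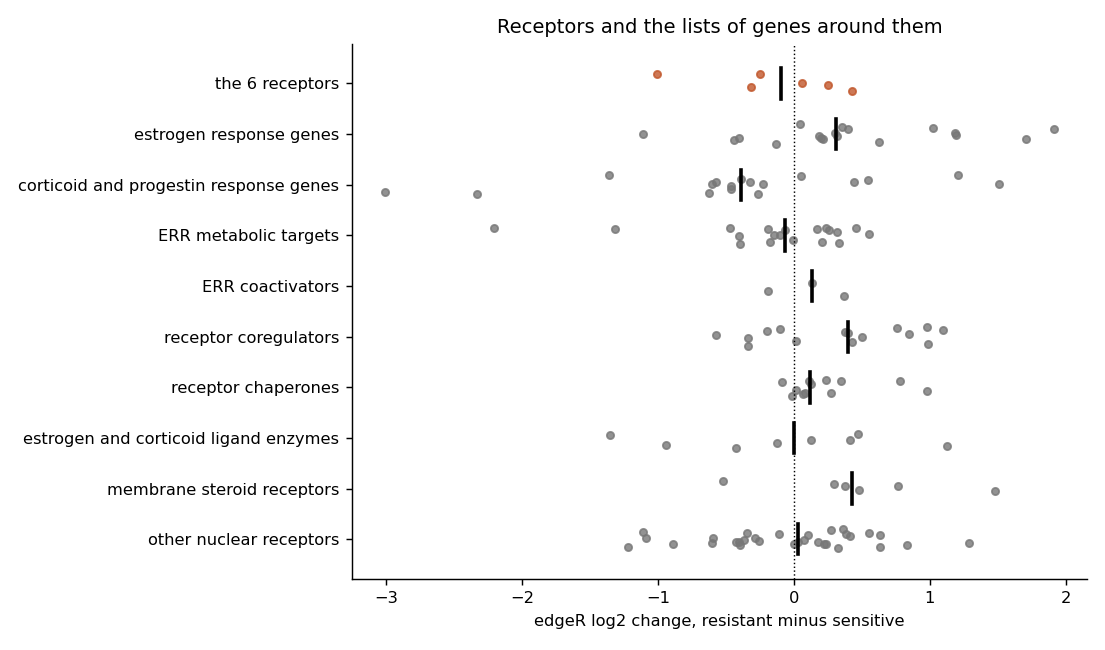
EdgeR log2 change, resistant minus sensitive, of the 6 receptors (orange) and of the tested genes of each list (grey), with a black bar at each median and points spread vertically only for display. Estrogen response genes have a median of 0.31, corticoid and progestin response genes -0.39, and the leftmost receptor is NR3C2 at -1.01.

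The genes whose pattern over the 6 lines was most like that of each receptor were taken by Pearson's r of log2(scaled FPKM + 1), among 7737 protein-coding genes that varied by at least 1 log2 unit. With 6 points, high values are common, and they are given as description. For NR3C2 they were NELF (r = 0.986), CD320 (0.981) and C20orf96 (0.980), and 40 genes exceeded an r of 0.9. For ESR1 they were DDX23 (0.997), YTHDC1 (0.993) and KIAA1429 (0.990), of 127 such genes. For ESRRA they were FAM83C (0.994), MUS81 (0.992) and RPL30 (0.990), of 210. For the low receptors they were MAD2L1BP (0.948), TBC1D9B (0.922) and FAM193B (0.919) beside PGR, ZNF32 (0.991), SCD5 (0.989) and ABCC1 (0.981) beside ESR2, and TMEM62 (0.991), YES1 (0.989) and B4GALT1 (0.972) beside ESRRG.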

How the data were processed

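Read counts and FPKM per gene were deposited by the authors in 1 table per line. Per the submitters' processing notes the tools and build were HTSeq and hg18. The aligner, the annotation release and how strand was used were not given in the sources used here. The deposited FPKM of 100% of entries could be rebuilt within 1% from the deposited counts, lengths and totals. The 51698 entries hold 47032 symbols. Entries of 345 symbols were summed, and 4197 symbols of small RNA classes were left out of the tests; each receptor is a single entry.

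Library factors were medians of ratios over 11601 genes. Counts were tested with edgeR 4.0.16 (quasi-likelihood, TMM, limma 3.58.1, R 4.3.3) in 20132 genes with a mean CPM of at least 1, of which 15185 are protein coding, for state with the parental line as a block and for lineage with state as a term, with Benjamini-Hochberg adjustment at 5%. The additive model takes the spread from all 3 pairs. Nothing says that cultures were repeated, so p-values measure the spread between these 6 libraries. Pair ratios use scaled counts with exact conditional binomial intervals (scipy 1.17.1), and levels exact Poisson intervals, each at 95%. SOLiD reads without molecular identifiers are not independent molecules.

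The line names pair the samples. Deviations from the state means correlated at 0.46, 0.72 and 0.59 within the LnCaP, VCaP and LAPC4 pairs and at -0.47 to -0.08 across pairs. The deviations of the 3 lines of a state cancel out, so positive values within pairs push those across pairs below 0. The negative values are therefore no separate evidence for the pairing. In the lists, named genes are the 3 with the smallest p for state and the 2 with the smallest p for lineage; the 3 most similar genes are named per receptor. A few genes that this rule picks are not reported here. Some levels or genes outside that rule were chosen after their values were seen. These were TRMT112, SYNE1, SYNE2, LUM, the luminal markers named singly, SCNN1A, SCNN1G, CYP1A1 by lineage and NR3C1. The receptors and lists were chosen with earlier results of these data known. Alternatives were DESeq2 1.42.0, limma, other scalings, filters and pseudocounts, and leaving out libraries.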

Additional observations from a re-analysis of the deposited data

Results flagged for a closer look

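Opposite directions in different lineages drew attention to a pair of receptors. The log2 ratio of PGR in the LnCaP pair exceeded that in the VCaP pair by 1.826, since PGR was higher in LnCaP-abl and lower in VCaP-CR than in the parent. For ESRRG the LnCaP pair minus the VCaP pair was -1.698 and the LnCaP pair minus the LAPC4 pair was -1.545, with the lower level in LnCaP-abl and the higher levels in VCaP-CR and LAPC4-CR. These differences were not tested, because each line has 1 library. All 8 immune and endothelial markers were below PGR in VCaP and LnCaP-abl and below ESRRG in VCaP, VCaP-CR and LAPC4-CR. In the other lines some or all of them reached the receptor. The counting intervals of PGR in LnCaP-abl and of ESRRG in VCaP and LAPC4-CR included the highest marker of the line.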

How the results depend on the processing

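Fits on protein-coding genes only, fits of single lineage pairs and ratios with no pseudocount were chosen after seeing the data. Depth limits PGR, ESR2 and ESRRG most, at 29 to 240 counts. Over the alternatives, 61 of 72 receptor levels and 95 of 108 pair changes moved by less than their counting error. Every pair change kept its sign under the settings run. These pair changes are differences of log2(scaled FPKM + 1), whereas the pair ratios in the Results use no pseudocount. Some changes of PGR, ESRRG and NR3C2 moved between these measures, such as PGR in the LnCaP pair, at 0.226 with the pseudocount and 0.838 without. NR3C2 was lower under all 11 of 11 alternatives, with log2 changes from -1.07 to -0.66 and adjusted p from 0.188 to 1.00. Without the replicate block, that is without pairing, the NR3C2 log2 change was -1.02, and edgeR called 0 receptors and 0 genes in either direction.

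The sign of a change near 0 turned in a few fits, and the cause was not tested. PGR became -0.000423 with limma, -0.37 without the LnCaP pair and -0.025 without the LAPC4 pair, and leaving out each pair in turn gave -0.37 to 0.55. ESRRG became -0.045 without the VCaP pair, in a range up to 0.74. PPARGC1A became 0.000434 without the LnCaP pair, in a range from -0.35, and PPRC1 -0.30 without the LAPC4 pair, in a range up to 0.62.

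Counts of genes called depended on the tool. For state, DESeq2 called 93 genes higher and 54 lower, and edgeR with no filter 93 and 57. When a pair was dropped, edgeR called 0 to 25 genes higher and 0 to 34 lower: the VCaP pair's removal gave 25 and 34, and that of the LAPC4 pair 9 and 6. For lineages, 2222 genes became 4187 with DESeq2, 4881 with no filter, and 769 to 3504 when 1 library was left out. ESRRA was the 1 receptor called by lineage with DESeq2 and with no filter (adjusted p = 0.0240), and leaving out 1 library gave 0 to 1 receptors.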
